A study of Homo sapiens with 8 samples.

Results

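The UDP-glucuronosyltransferases (UGTs) were read in HepG2 cells as a set of 10 genes of 49733 in the deposited gene files. The members are a list of names: UGT1A1, UGT1A6 and UGT1A9 of the UGT1A locus, UGT2B4, UGT2B7, UGT2B10, UGT2B11 and UGT2B15 of the UGT2B group, UGT2A3, and UGDH, the enzyme that makes their shared cosubstrate. Each had 1 Ensembl gene ID in the files, such as ENSG00000171234 for UGT2B7, ENSG00000109181 for UGT2B10 and ENSG00000241635 for UGT1A1. HepG2 is a cell line grown from a human hepatocellular carcinoma. Cells were exposed to 2 µM benzo[a]pyrene (BaP), a polycyclic aromatic hydrocarbon, or to the vehicle, 0.5% dimethyl sulfoxide (DMSO), for 12 h or for 24 h. Per the labels, the 2 libraries of each of the 4 groups came from independent experiments, BaP was given in DMSO, and polyadenylated RNA was sequenced. All groups are the same line, so the data describe a tumour line and not liver tissue.

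UGTs are enzymes of the endoplasmic reticulum that join glucuronic acid to small molecules, which makes them more soluble and marks them for export into bile or urine. In liver they act on bilirubin, bile acids, steroids, drugs and the hydroxylated products that cytochrome P450 enzymes make from hydrocarbons such as BaP. The UGT1A enzymes come from 1 locus in which a choice of first exons is joined to a common set of later exons, while the UGT2 enzymes come from separate, closely similar genes. BaP binds the aryl hydrocarbon receptor (AHR), and UGT1A1 and UGT1A6 are known targets of that receptor in liver cells.

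The promoter sequences below are shown because UGT2B7 and UGT2B10 are the members with the largest opposite differences among the well counted ones, and because UGT1A1 and UGT1A6 are the members best known as AHR targets. Each is the 250 bases before a RefSeq transcription start in GRCh38.p14, written 5′ to 3′ on the gene's strand, with motif matches in capitals. RefSeq promoters were matched for 9 of the 10 members, and UGT2B4 was not matched.
UGT2B7 (chr4:69096224-69096473, + strand): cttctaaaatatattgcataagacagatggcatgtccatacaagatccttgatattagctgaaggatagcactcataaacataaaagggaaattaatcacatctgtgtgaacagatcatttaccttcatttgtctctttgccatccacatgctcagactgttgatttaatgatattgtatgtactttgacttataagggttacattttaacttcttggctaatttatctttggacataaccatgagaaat
UGT2B10 (chr4:68815744-68815993, + strand): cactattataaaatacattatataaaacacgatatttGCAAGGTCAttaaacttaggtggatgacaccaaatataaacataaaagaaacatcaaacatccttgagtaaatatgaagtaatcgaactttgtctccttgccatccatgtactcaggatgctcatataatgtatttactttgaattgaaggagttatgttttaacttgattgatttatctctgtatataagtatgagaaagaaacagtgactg
UGT1A1 (chr2:233760020-233760269, + strand): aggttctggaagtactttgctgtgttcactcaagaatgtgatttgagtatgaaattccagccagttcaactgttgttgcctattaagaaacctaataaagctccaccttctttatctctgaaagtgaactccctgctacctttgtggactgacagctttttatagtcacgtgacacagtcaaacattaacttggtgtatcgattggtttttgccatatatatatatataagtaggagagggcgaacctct
UGT1A6 (chr2:233691452-233691701, + strand): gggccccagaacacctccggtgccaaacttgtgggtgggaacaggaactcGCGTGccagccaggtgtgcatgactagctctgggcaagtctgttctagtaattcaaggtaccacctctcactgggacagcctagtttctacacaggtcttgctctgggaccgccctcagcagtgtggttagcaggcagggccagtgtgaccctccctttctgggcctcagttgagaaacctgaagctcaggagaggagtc

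The motifs searched, on both strands and with no overlap between matches in these sequences, were GCGTG, the core bound by AHR with its partner ARNT, and TGACNNNGC, the core bound by NRF2. Of 35116 RefSeq promoters of the same length, 32.2% held GCGTG and 10.9% held TGACNNNGC. The UGT2B7 and UGT1A1 windows held no match. The UGT2B10 window held 1 match, TGACNNNGC on the reverse strand, 213 bases before the start, and the window of UGT2B11 held the same motif 217 bases before its start. The UGT1A6 window shown held GCGTG, 200 bases before the start, and a further UGT1A6 start had TGACNNNGC at 98 bases before it. UGT1A9 had GCGTG on the reverse strand, 65 bases before its start. The windows of UGDH, UGT2A3 and UGT2B15 held neither motif. These are matches of letters and not measured sites. Sequence beyond the 250 bases was not searched, so a window without a match says nothing of sites further away.

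Total estimated counts per library ran from 2592272, in BaP 24 h replicate 1, to 16533490, in BaP 24 h replicate 2. Values are given as CPM, counts scaled to a common library size, and, where genes are compared with each other, as TPM, the deposited share of transcript molecules, which is corrected for length, on the usual TPM scale. The exposure was seen in CYP1A1, the main AHR target, which rose by 7.66 ± 0.24 (log2, SE) at 12 h and 7.74 ± 0.28 at 24 h, and in NQO1, an NRF2 and AHR target, which rose by 1.33 ± 0.15 and 1.55 ± 0.15 (edgeR quasi-likelihood test, adjusted p = 1.9e-05 or lower in each case). All 10 hepatocyte markers were above 1 CPM, among them ALB at 1969 CPM or more and AFP at 1242 CPM or more. Of the markers of other cell types, DCN and LUM (fibroblast), KDR and TEK (endothelium), CD3E (T cell) and CFTR (bile duct) were at 0 in every library. Others of the same lists were not. Of the bile duct list 3 of 5 genes were above 1 CPM: KRT19 at 286 to 547 CPM, SOX9 at 258 to 345 and EPCAM at 44.5 to 65.7. CDH5 (endothelium) held 0.375 to 3.00 CPM, and LYZ (leukocyte) held 509 to 949 CPM. Of the leukocyte list 3 of 6 genes were above 1 CPM, with a sum of 589 to 593 CPM with BaP against 551 to 670 at 12 h and 920 to 962 against 970 to 990 at 24 h, PTPRC at 0.188 CPM or less, and 2 genes called higher: CD14 at both times (1.04 and 1.54) and CD68 at 24 h (0.56; 51.8 and 56.1 CPM with BaP against 37.4 and 36.2). The 6 fibroblast markers summed to 20.0 to 28.9 CPM with BaP against 35.3 to 59.9 at 12 h and to 25.8 to 31.5 against 39.6 to 57.1 at 24 h, with PDGFRB called lower at 12 h (-0.88). The part of these markers in the members' differences was not tested. The TPM values of BaP 24 h replicate 2 stood apart. The median tested gene had 0.442 TPM for each CPM in that library, against 0.506 to 0.573 in the other 7, so levels per length are compared within libraries.

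Among the members, UGDH was the most abundant per length and UGT2B10 the most abundant UGT. In the 12 h vehicle cells the mean level per length was 127 ± 37.0 TPM for UGDH (SD, n = 2) and 35.0 ± 6.28 for UGT2B10. UGT2A3 at 12.0 ± 1.70 and UGT2B7 at 11.2 ± 1.87 followed. Within libraries UGT2A3 was slightly above UGT2B7 in both, at 10.8 against 9.85 TPM in replicate 1 and 13.2 against 12.5 in replicate 2. UGT2B11 stood at 1.72 ± 1.46, UGT2B4 at 0.319 ± 0.142, UGT1A1 at 0.107 ± 0.006 and UGT2B15 at 0.104 ± 0.086, and UGT1A6 and UGT1A9 had no count. The UGT1A genes were near or at the counting limit in vehicle cells, and UGT2 genes made up nearly all UGT transcripts. UGT2B10, UGT2B7 and UGT2A3 together held 91.0% to 96.3% of the length-corrected transcripts of the 21 UGT enzyme genes in each library.

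**Figure D1:**
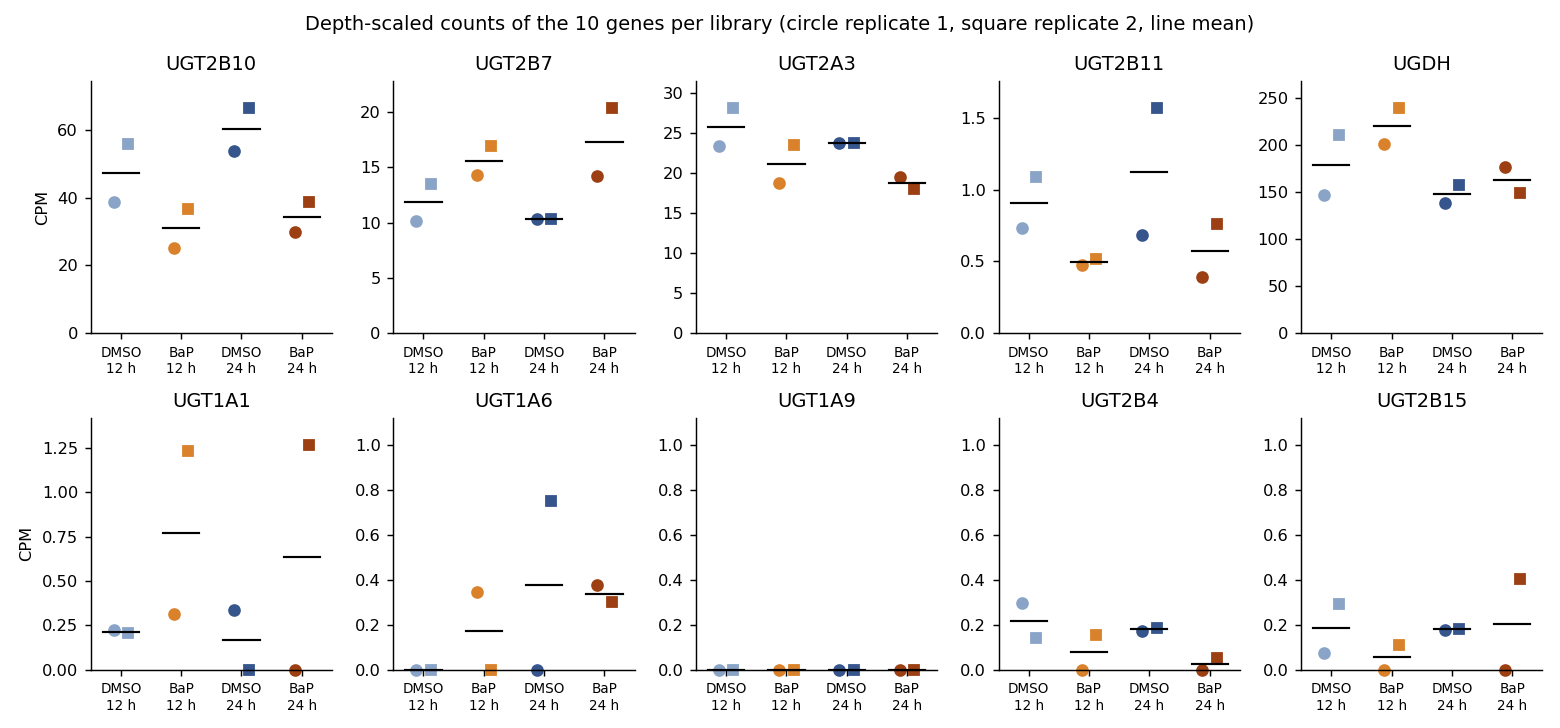
Depth-scaled counts in CPM (vertical axis, from 0, with its own scale in each panel) of the 10 genes in each library, by group (horizontal axis). Circles are replicate 1, squares replicate 2 and lines the mean of 2 libraries. Both BaP libraries lie above both vehicle libraries for UGT2B7 and below them for UGT2B10 at each time, and UGT1A9 is at 0 throughout.

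Of the 10 members, 6 passed the filter on low counts and were tested, and UGT1A6, UGT1A9, UGT2B4 and UGT2B15 did not. UGT1A1 passed through the BaP libraries, in which its counts were highest. At 12 h no tested member rose and none fell, where 3.41% of all 14746 tested genes rose and 4.84% fell (8.25% in all). At an unadjusted p under 0.05 the 12 h counts were 1 higher (UGT2B7) and 1 lower (UGT2B10). By other tools, the Wald test of DESeq2 called none at 12 h and edgeR's exact test called UGT2B10 lower. At 24 h 1 tested member rose, UGT2B7, and none fell, where 3.11% of all tested genes rose and 2.2% fell (5.3% in all). UGT2B10 was lower at 24 h at an unadjusted p under 0.05, and both DESeq2 and the exact test called it lower. The shares of all genes called by these other tools are not given here. The median log2 difference of the 6 tested members was 0.01 at 12 h and -0.11 at 24 h, beside 0.02 and 0.01 over all tested genes.

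UGT2B7 was higher with BaP. This enzyme conjugates steroids, bile acids, morphine and many carboxylic acid drugs. Its level at 12 h was 10.2 and 13.5 CPM in the vehicle libraries (replicates 1 and 2) and 14.3 and 16.9 CPM in the BaP libraries. At 24 h it was 10.3 CPM in both vehicle libraries and 14.3 and 20.4 CPM in the BaP libraries. The BaP and vehicle libraries did not overlap at either time, and the spread was widest between the 2 BaP libraries at 24 h. How many of all tested genes separate in this way was not counted. For this gene and those below, the lack of overlap between 2 and 2 libraries is therefore a description only. The fitted difference at 24 h was 0.83 ± 0.21 (log2, SE; 95% interval 0.38 to 1.27), or 1.77-fold, and it passed (edgeR quasi-likelihood test, adjusted p = 0.028). At 12 h it was 0.41 ± 0.19 and did not pass (adjusted p = 0.24). The effects at the 2 times differed by 0.42 ± 0.28 (adjusted p = 0.69). With BaP 24 h replicate 2 left out UGT2B7 no longer passed (0.46, adjusted p = 0.56), nor with vehicle 24 h replicate 1 (0.82, adjusted p = 0.24) or replicate 2 (0.82, adjusted p = 0.16) left out, in a fit to the 4 libraries at 24 h alone (adjusted p = 0.056) and with DESeq2 (adjusted p = 0.11).

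UGT2B10 went the other way in each library, without passing the main test. This enzyme is known for N-glucuronidation of nicotine, cotinine and tertiary amine drugs. Its level at 12 h was 38.9 and 55.9 CPM in the vehicle libraries and 25.1 and 36.7 CPM in the BaP libraries. At 24 h it was 53.9 and 66.5 CPM with vehicle and 30.0 and 38.8 CPM with BaP. Both BaP libraries lay below both vehicle libraries at each time, with a narrow gap at 12 h. The fitted differences were -0.60 ± 0.22 at 12 h (log2, SE; 95% interval -1.09 to -0.11) and -0.74 ± 0.23 at 24 h (-1.26 to -0.22), that is 0.658-fold and 0.597-fold. Neither passed over all genes (edgeR quasi-likelihood test, adjusted p = 0.15 and 0.11). The sign held in 16 of 16 alternative analyses at each time, which refit the same libraries. Because the groups did not overlap, leaving out 1 library left little room for the sign to turn. UGT2B10 was called lower in 5 of the 16 at 12 h and in 9 of the 16 at 24 h. Among them were the fit with no filter on low counts (adjusted p = 4.3e-04 and 2.2e-05), the replicate block at both times and DESeq2 at 24 h (adjusted p = 0.024). The share of all genes called in each alternative is not given here. Leaving out vehicle 12 h replicate 2 moved the 12 h difference to -0.33, and leaving out BaP 12 h replicate 1 moved it to -0.37. Leaving out BaP 12 h replicate 2 moved it to -0.93 and gave a call (adjusted p = 0.042). The summed hepatocyte markers were also lower with BaP, at 21363 to 22526 CPM against 27344 to 29371 at 12 h and at 24978 to 29353 against 32928 to 37586 at 24 h, with 1 of the 10, APOB, called lower at both times (-0.81 and -0.75). The list's median difference was -0.15 at 12 h and -0.23 at 24 h. Without APOB the sum of the other 9 was 15221 to 15559 CPM with BaP against 16604 to 17109 at 12 h, and 16451 to 21593 against 20129 to 23088 at 24 h, where the groups overlapped. The part of that shift in the UGT2B10 difference was not tested. In bulk RNA, fewer cells that express a gene and less of its RNA per cell cannot be told apart.

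The opposite differences of these genes can be written as a ratio within single libraries, which does not depend on depth or scaling. The ratio uses the same counts as the values above, so it adds no independent support. It was looked at after those values were known and carries no test. In the vehicle libraries there were 3.82 and 4.15 UGT2B10 counts for each UGT2B7 count at 12 h, and 5.23 and 6.45 at 24 h. In the BaP libraries there were 1.76 and 2.17 at 12 h, and 2.10 and 1.90 at 24 h. All 4 BaP libraries thus lay below all 4 vehicle libraries. Per length, UGT2B10 held 56.8% to 68.3% of UGT transcripts in vehicle libraries and 41.6% to 50.8% in BaP libraries, while UGT2B7 held 11.9% to 18.4% and 22.0% to 29.7%.

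**Figure D2:**
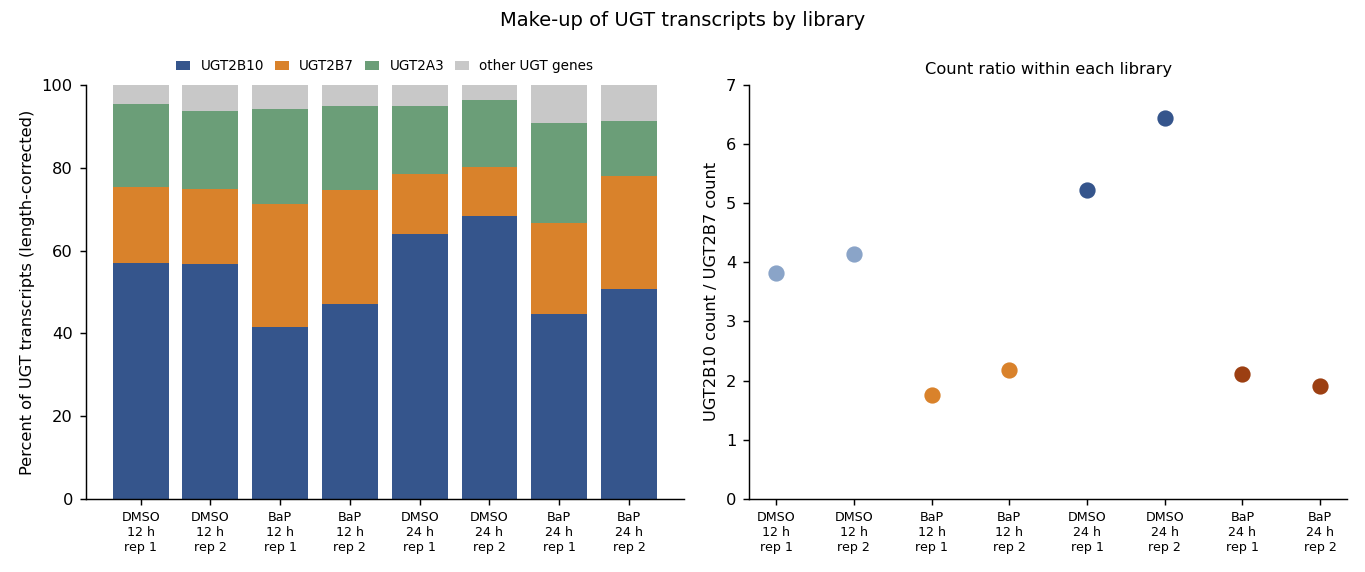
Left, share of each library's length-corrected UGT transcripts (percent) held by UGT2B10, UGT2B7, UGT2A3 and the other UGT genes. Right, UGT2B10 counts per UGT2B7 count in each library. The ratio is between 1.76 and 2.17 in the 4 BaP libraries and between 3.82 and 6.45 in the 4 vehicle libraries.

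UGT2A3, which conjugates bile acids and is expressed in liver and intestine, was lower with BaP at 24 h by less than the test could call. Its level at 24 h was 23.8 CPM in both vehicle libraries and 19.5 and 18.1 CPM with BaP. At 12 h it was 23.4 and 28.1 CPM with vehicle and 18.7 and 23.6 CPM with BaP. The groups overlapped at 12 h and did not at 24 h. The differences were -0.28 ± 0.15 and -0.36 ± 0.17 (log2, SE; edgeR quasi-likelihood test, adjusted p = 0.35 and 0.25).

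UGT2B11, UGT2B4 and UGT2B15 were counted too rarely for a comparison of any precision. UGT2B11, a close relative of UGT2B10, held 0.729 and 1.09 CPM with vehicle and 0.477 and 0.513 CPM with BaP at 12 h, and 0.681 and 1.57 CPM against 0.390 and 0.759 CPM at 24 h. Its differences of -0.86 ± 0.62 and -0.57 ± 0.68 did not pass (edgeR quasi-likelihood test, adjusted p = 0.51 and 0.70), and the groups overlapped at 24 h. UGT2B4, an enzyme of bile acid conjugation, had 11.8 counts over all 8 libraries and at most 4 in a library. UGT2B15, which conjugates androgens, had 15.8 counts and at most 6.06 in a library. A library's count of 0 allows up to 3 counts, which is 0.181 CPM in the deepest library and 1.16 CPM in the shallowest.

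The close similarity of UGT2B genes bears on how reads were divided between them. In GENCODE 29, 31.7% of the 50-base windows of the longest UGT2B10 coding transcript also occur in transcripts of another gene, as do 40.8% of those of UGT2B11, 27.8% of UGT2B15, 6.75% of UGT2B7, 5.42% of UGT2A3 and 3.17% of UGT2B4. The counts of UGT2B10, UGT2B11 and UGT2B28 were therefore also summed, which removes the division among these 3. Pseudogenes that share sequence with them were left out of the sum. UGT2B27P, which shares the most with UGT2B10, had 37.8 counts over all 8 libraries, and UGT2B24P, UGT2B25P and UGT2B26P had at most 2 each. The sum differed by -0.61 ± 0.22 at 12 h and -0.74 ± 0.23 at 24 h (log2, SE; edgeR quasi-likelihood test, adjusted p = 0.15 and 0.11), close to UGT2B10 alone. The sum over the 7 UGT2B genes in the files differed by -0.35 ± 0.20 and -0.40 ± 0.21 (adjusted p = 0.40 and 0.34). The deposited interval around a level per length, of a confidence level that the sources used here do not give, spanned 15.2% to 47.4% of the posterior mean for UGT2B10 and 24.8% to 68.0% for UGT2B7, widest in BaP 24 h replicate 1 for each. For UGT1A1 it spanned 108% to 302%. The posterior mean is not the level printed here: it was 54.2% to 93.3% of that level for UGT2B10 and 64.5% to 96.8% for UGT2B7, lowest in BaP 24 h replicate 1. The printed level lay outside the interval in 7 of 8 libraries for UGT2B10, in 6 of 8 for each of UGT2A3 and UGDH and in 1 of 8 for UGT2B7. Among the rarely counted members it lay outside in 8 of 8 for each of UGT1A6 and UGT1A9 and in 6 of 8 for UGT2B4. It did so in 3 of 8 for UGT1A1, 2 of 8 for UGT2B15 and 1 of 8 for UGT2B11. For UGT1A6 in vehicle 12 h replicate 1 the printed level was 0 and the deposited interval 0.323 to 1.53 TPM, so its level depends on which deposited estimate is read.

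The estimated division between transcripts of UGT2B7 and UGT2B10 also differed between the groups, as a description with no test. The longest UGT2B7 transcript (1887 bases in GENCODE 29) held 64.1% and 62.0% of the gene's counts with vehicle and 74.9% and 72.5% with BaP at 12 h, and 73.9% and 74.0% against 88.6% and 86.5% at 24 h. The longer of the UGT2B10 transcripts (1931 bases, the other 1424) held 36.8% and 58.6% with vehicle and 80.9% and 70.9% with BaP at 12 h, and 51.1% and 56.1% against 62.4% and 58.4% at 24 h. For UGT2B7 and UGT2B10 the BaP libraries had the higher share of the longer form at each time. For UGT2A3 the share of the longer form overlapped between the groups at both times. The longest UGDH form (3216 bases) overlapped at 12 h, with 66.7% and 41.7% with BaP against 62.7% and 44.8%. At 24 h it held 63.7% and 70.0% with BaP against 54.3% and 41.8%. In BaP 24 h replicate 2, whose levels per length stood apart, the shorter UGT2A3 transcript (1645 bases) held 3.16% of the gene's counts, against 11.7% to 58.7% in the other 7 libraries, and the part of this in the 24 h shares was not tested.

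The UGT1A locus was at the limit of counting. Its 9 gene IDs together had 4 and 3 counts in the vehicle libraries at 12 h and 4 and 4 at 24 h, against 7 and 16 with BaP at 12 h and 1 and 30.0 at 24 h. The single count came from BaP 24 h replicate 1, the shallowest library. In CPM the sum was 0.295 and 0.210 with vehicle and 0.814 and 1.23 with BaP at 12 h, and 0.340 and 0.750 against 0.375 and 2.01 at 24 h. The groups did not overlap at 12 h and overlapped at 24 h. The exact 95% Poisson interval, which covers counting error only, was 0.00950 to 2.09 CPM in BaP 24 h replicate 1 and 1.35 to 2.86 CPM in replicate 2. The sum differed by 2.01 ± 0.72 at 12 h and 1.69 ± 0.71 at 24 h (log2, SE), which is 4.02-fold and 3.22-fold, and neither passed over all genes (edgeR quasi-likelihood test, adjusted p = 0.11 and 0.19). In a fit to the 4 libraries at 12 h alone the 12 h difference passed (2.00, adjusted p = 0.048). The sum passed the filter on low counts through the BaP libraries, in which its counts were highest, so this call is no independent test of a rise. Without BaP 24 h replicate 2 the 24 h difference was -0.36, and without vehicle 24 h replicate 1 it was 1.04.

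**Figure D3:**
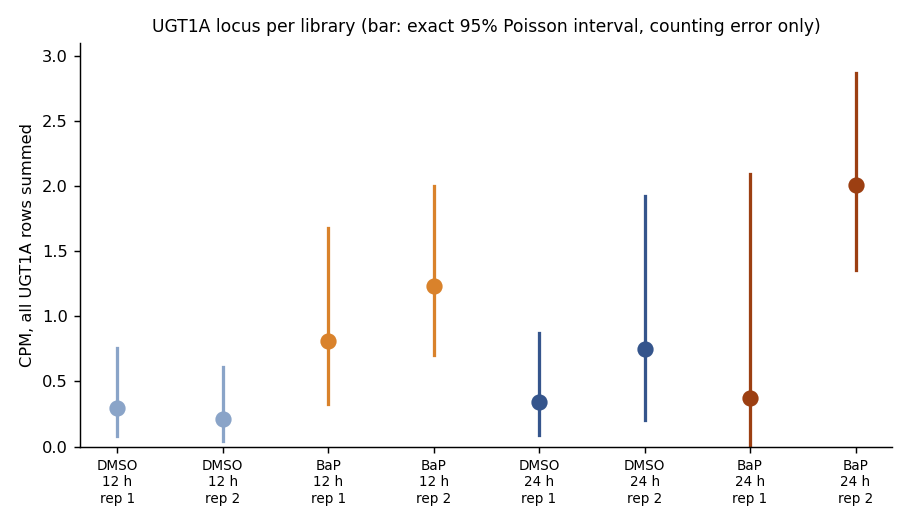
Depth-scaled counts (CPM) of all UGT1A gene IDs summed (vertical axis) in each library (horizontal axis), with bars for the exact 95% Poisson interval, which covers counting error only. The BaP libraries at 12 h are at 0.814 and 1.23 CPM, above both vehicle libraries, and BaP 24 h replicate 1 is at 0.375 CPM with an interval up to 2.09.

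Within the locus 3 of the 9 gene IDs had any count. UGT1A1, the bilirubin-conjugating enzyme, had 47.6 of these counts, UGT1A6, which conjugates simple phenols, had 12.4, and UGT1A10 had 8.92. UGT1A1 had 3 and 3 counts with vehicle and 2.68 and 16.0 with BaP at 12 h, and 4 and 0 against 0 and 19.0 at 24 h. Its differences of 1.91 ± 0.92 and 2.04 ± 1.03 (log2, SE) did not pass (edgeR quasi-likelihood test, adjusted p = 0.26 and 0.28), and the sign at 24 h turned without BaP 24 h replicate 2. UGT1A6 had 0 and 0 counts with vehicle and 2.97 and 0 with BaP at 12 h, and 0 and 4 against 1 and 4.47 at 24 h. UGT1A9, which conjugates propofol and other phenols, had no count in any library, which allows up to 0.0356 CPM over all 8. The division between UGT1A1 and UGT1A6 rests on little sequence. With transcripts assigned to genes as deposited, 98.3% of the 50-base windows of the UGT1A1 transcript occur in transcripts of other genes of the locus. The transcript that held 51.4% of UGT1A6's counts is listed under UGT1A6 in the deposited annotation and under UGT1A1 in GENCODE 29. Windows shared with it count as shared in the 98.3%, and its part in that share was not separated. It held all 2.97 UGT1A6 counts with BaP at 12 h and 3.42 of the 4 with vehicle at 24 h. By the GENCODE 29 listing UGT1A6 thus had no count at 12 h.

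**Figure D4:**
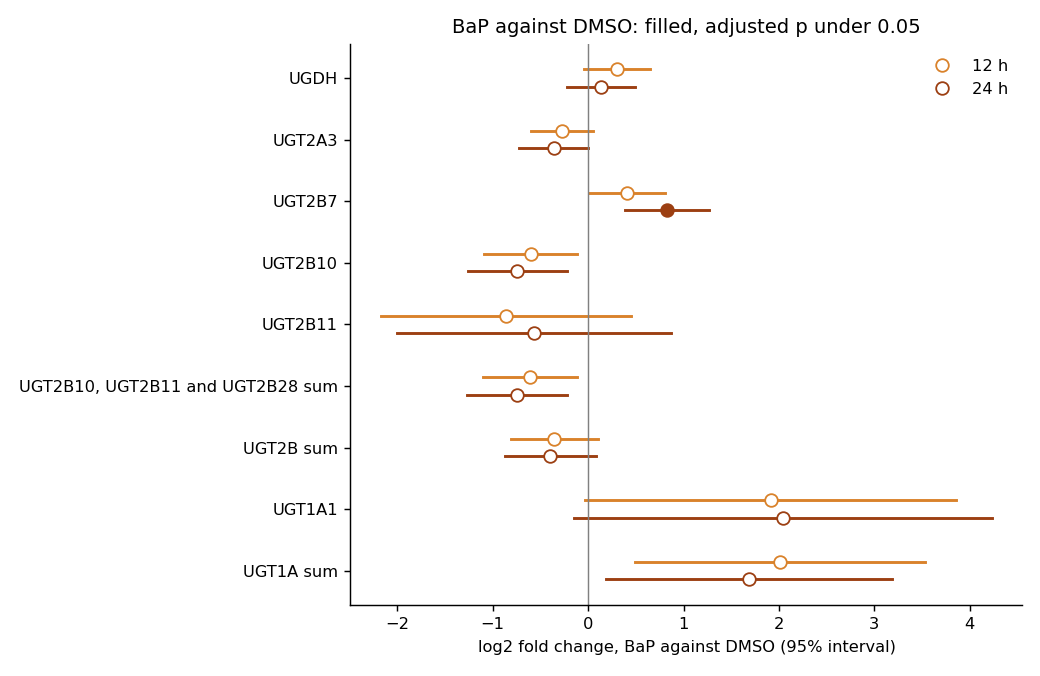
Log2 fold change of BaP against vehicle (horizontal axis) at 12 h and 24 h for the tested members and for summed counts, with 95% intervals. Filled points passed at an adjusted p under 0.05, which UGT2B7 did at 24 h (0.83).

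UGDH, UDP-glucose 6-dehydrogenase, makes the UDP-glucuronic acid that every UGT uses and is the member with the most counts. At 12 h it held 147 and 210 CPM with vehicle and 201 and 239 CPM with BaP, and at 24 h 138 and 157 CPM against 176 and 149 CPM. The groups overlapped at both times, and the differences of 0.30 ± 0.16 and 0.13 ± 0.17 (log2, SE; 95% intervals -0.04 to 0.65 and -0.23 to 0.49) did not pass (edgeR quasi-likelihood test, adjusted p = 0.34 and 0.72). Per length its level was 133 TPM in BaP 24 h replicate 1 and 52.3 in replicate 2. In replicate 2 the 1712-base UGDH transcript held 2.95% of the gene's counts, against 19.7% to 30.7% in the other 7 libraries. UGDH overlaps the antisense gene UGDH-AS1, and the sources used here do not say whether counting used strand. The sum of both genes differed by 0.25 ± 0.16 and 0.17 ± 0.17 (adjusted p = 0.46 and 0.63).

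No member passed for time alone. Between 12 h and 24 h of vehicle none of the 6 tested members rose or fell (edgeR quasi-likelihood test; none at an unadjusted p under 0.05, by DESeq2 or by the exact test), where 3.28% of all tested genes changed. UGT2B10 differed by 0.33 ± 0.22 and UGDH by -0.28 ± 0.16 (adjusted p = 0.51 and 0.44). Between 12 h and 24 h of BaP none passed either, where 17.4% of all tested genes changed. There UGDH was lower by an unadjusted p under 0.05 (-0.45 ± 0.17, adjusted p = 0.078), and it was called lower in 3 of 16 alternative analyses. The BaP effects at 24 h and 12 h differed for none of the 6 members (none at an unadjusted p under 0.05), where they differed for 0.543% of all tested genes. For UGT2B10 that difference was -0.14 ± 0.32 (adjusted p = 0.93).

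Around the enzymes, genes that supply UDP-glucuronic acid moved little. Of 15 tested genes of supply and use, 0 rose and 1 fell at each time (8.25% and 5.3% of all tested genes changed), and their median log2 difference was -0.01 at 12 h and 0.00 at 24 h, close to that of all genes. The gene that fell was HK2, a hexokinase at the entry of glucose, by -0.44 ± 0.12 and -0.56 ± 0.12 (log2, SE; edgeR quasi-likelihood test, adjusted p = 0.038 and 0.015). UGP2, which makes UDP-glucose, differed by 0.01 and -0.09 and SLC35D1, which carries UDP-glucuronic acid into the endoplasmic reticulum, by 0.19 and 0.03. Of 6 tested genes of the glucuronic acid, xylose and ascorbate side pathway, 1 fell at each time. It was RGN, a gluconolactonase, at 0.444-fold and 0.501-fold of vehicle (SE 0.21 and 0.25 on the log2 scale, edgeR quasi-likelihood test, adjusted p = 0.0020 and 0.026). Of 10 tested genes that spend UDP-glucuronic acid on proteoglycan chains, 1 fell at 12 h, EXT1 of heparan sulfate synthesis (-0.56 ± 0.13, adjusted p = 0.014), and none passed at 24 h (adjusted p = 0.54 for EXT1). UGT8, a galactosyltransferase and the 1 gene tested of 12 other UGT genes in the files, differed by 0.11 ± 0.37 and 0.35 ± 0.43 (adjusted p = 0.92 and 0.71).

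The exporters ABCC2, ABCC3 and ABCG2, which move glucuronides out of the cell, rose. Of 7 tested glucuronide transporters, 2 rose and 2 fell at 12 h, and 3 rose and 0 fell at 24 h, with medians of -0.03 and 0.43. Over all tested genes 3.41% rose and 4.84% fell at 12 h, and 3.11% rose and 2.2% fell at 24 h. ABCC2 (MRP2), the canalicular exporter of bilirubin glucuronide, rose by 0.95 ± 0.14 and 0.64 ± 0.14 (log2, SE; edgeR quasi-likelihood test, adjusted p = 2.4e-04 and 0.012). ABCG2, a further efflux pump, rose by 0.76 ± 0.22 and 1.07 ± 0.25 (adjusted p = 0.047 and 0.022). ABCC3 (MRP3), the basolateral exporter, differed by 0.25 ± 0.14 at 12 h and rose by 0.95 ± 0.14 at 24 h (adjusted p = 0.34 and 8.6e-04). The exporters ABCC1 and ABCC4 differed by -0.03 and -0.57 at 12 h and by 0.43 and -0.10 at 24 h and did not pass (adjusted p = 0.95, 0.13, 0.078 and 0.88). The uptake carriers SLCO2B1 and SLC22A7 fell at 12 h by -0.90 ± 0.24 and -1.03 ± 0.29 (adjusted p = 0.043 and 0.038), and at 24 h the differences were -0.34 and -1.03 (adjusted p = 0.50 and 0.21). Without BaP 24 h replicate 1 SLCO2B1 was called lower at 24 h (-0.69, adjusted p = 0.020), and without replicate 2 its sign turned (0.16, adjusted p = 0.85).

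Of 14 tested regulators of UGT genes, 1 rose and 2 fell at 12 h and 0 rose and 1 fell at 24 h, where 8.25% and 5.3% of all tested genes changed. KEAP1, which holds NRF2 in check, rose at 12 h by 0.76 ± 0.12 (log2, SE; edgeR quasi-likelihood test, adjusted p = 6.2e-04). RXRA, the partner of the nuclear receptors PXR, CAR and PPARA, fell by -0.60 ± 0.12 and -0.46 ± 0.13 (adjusted p = 0.0035 and 0.044), and PPARA fell at 12 h by -0.48 ± 0.14 (adjusted p = 0.040). At 24 h PPARA differed by -0.33 (adjusted p = 0.21) and was called lower without BaP 24 h replicate 1 (-0.46, adjusted p = 0.045). AHR itself differed by -0.28 and -0.21 (adjusted p = 0.36 and 0.52).

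**Figure D5:**
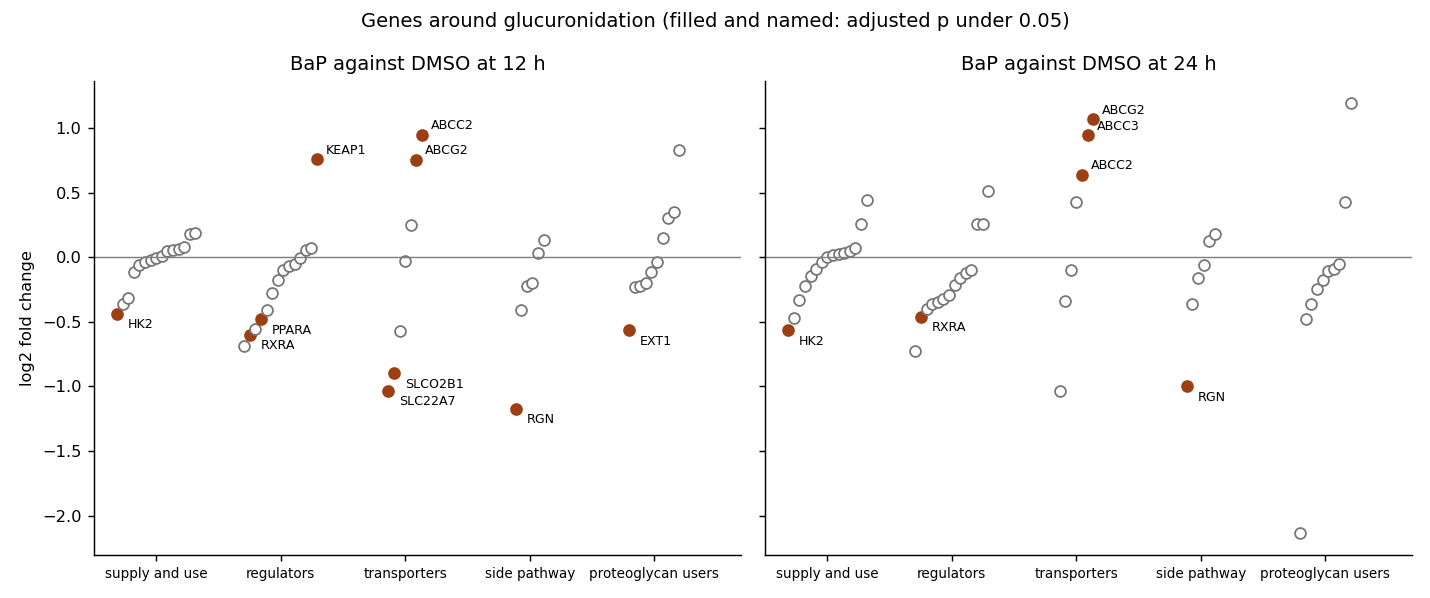
Log2 fold change of BaP against vehicle (vertical axis) for the tested genes of 5 lists around glucuronidation, at 12 h (left) and 24 h (right). Filled, named points passed at an adjusted p under 0.05. At 24 h the transporters ABCG2, ABCC3 and ABCC2 lie above 0, and HK2, RXRA and RGN below.

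Several of these calls rest on few libraries. ABCC2 at 12 h, ABCC3 at 24 h, KEAP1 at 12 h and RGN at 12 h passed in all 16 alternative analyses. With edgeR, ABCC2 at 24 h lost its call without vehicle 24 h replicate 1 or 2 (adjusted p = 0.23 and 0.052). ABCG2 at 24 h lost it without BaP 24 h replicate 2 or vehicle 24 h replicate 1 (adjusted p = 0.39 and 0.34), and RGN at 24 h without BaP 24 h replicate 2 (adjusted p = 0.47) or either vehicle library (adjusted p = 0.093 and 0.18). HK2 at 24 h lost it without either vehicle library at 24 h (adjusted p = 0.059 and 0.19), and EXT1 without BaP 12 h replicate 1 or vehicle 12 h replicate 1 (adjusted p = 0.27 and 0.084). RXRA at 12 h lost it without BaP 12 h replicate 1 (adjusted p = 0.098). The calls of HK2, PPARA, ABCG2 and SLCO2B1 at 12 h were each lost without any of the 4 libraries at 12 h, with adjusted p between 0.052 (ABCG2) and 0.43 (HK2), and also without either vehicle library at 24 h. SLC22A7 at 12 h was lost without BaP 12 h replicate 1 or 2 or vehicle 12 h replicate 1 (adjusted p = 0.35, 0.089 and 0.26), and without vehicle 24 h replicate 2 (adjusted p = 0.050). RXRA at 24 h was lost in 8 of 16 alternatives, with adjusted p up to 0.26. The median of all tested genes was within 0.02 of 0 in both comparisons.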

How the data were processed

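Polyadenylated RNA of 8 HepG2 libraries, 2 in each of 4 groups, was sequenced, and 16 files were deposited, 1 per library for genes and 1 for transcripts. Their estimated counts, not whole numbers, were deposited as RSEM gave them, without normalisation. The deposited fractions give each gene's part of the transcript molecules after correction for length, and were multiplied to TPM. Both come with posterior means and interval bounds. The submitters' processing notes name Bowtie 0.12.7, RSEM 1.1.7 and edgeR without their roles, and the annotation is Ensembl 58 per the labels of the files. No source used here names the genome build. Gene IDs were named through a reference table, which named all 10 members.

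Counts were rounded and fitted in R 4.3.3 with edgeR 4.0.16: filterByExpr by group (minimum count 10, total 15), which left 14746 genes, scaling by the trimmed mean of M-values, and a robust quasi-likelihood fit to all 8 libraries with 1 mean per group. Tests were two-sided, with p adjusted by Benjamini and Hochberg over all tested genes and a threshold of 0.05. The SE is the size of the fold change divided by the square root of F. Counts of genes that share sequence were summed and the table was refitted. Total counts ran from 2592272 to 16533490, so a count of 0 allows up to 0.181 to 1.16 CPM, and intervals and floors cover counting error only. Alternatives were DESeq2 1.42.0 (size factors, Wald test), no filter, edgeR's exact test, a replicate block, the libraries of a comparison alone, posterior mean counts, summed transcript files and leaving out each library. The sum of UGDH and UGDH-AS1 was added after the data were seen. The fit was tested on simulated data. The members and gene lists were chosen with earlier results of these data known. From each list around glucuronidation the text names genes that passed at either time, up to 4 with the smallest p, and CYP1A1 and NQO1; SLCO2B1, AHR, UGP2, SLC35D1, ABCC1, ABCC4, UGT8 and the single marker genes of cell types were named after their values were seen. Promoters come from RefSeq (GRCh38.p14), and shared sequence from GENCODE 29.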

Additional observations from a re-analysis of the deposited data

How the results depend on the processing

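Members called higher with BaP at 24 h fell from 1 (UGT2B7) to 0 in the fit to the libraries of the comparison alone and with DESeq2's Wald test, and ran from 0 to 1 when libraries were left out. Members called lower rose from 0 to 1 (UGT2B10) with no filter, with edgeR's exact test and with the replicate block at each time, and at 24 h also with the comparison's libraries alone and with DESeq2's Wald test; when libraries were left out they ran from 0 to 1 at each time. Between the BaP times the decrease of UGDH passed in the unfiltered table (adjusted p = 0.0046) and without vehicle 12 h replicate 1 or 2 (adjusted p = 0.033 and 0.032). The UGT1A sum at 12 h, which passed the filter on low counts through the BaP libraries, was called in the fit to the comparison's libraries alone (2.00). At 24 h the sum ran from -0.36 to 2.16 when libraries were left out, with the sign turned without BaP 24 h replicate 2. Signs of single genes turned in some of the analyses that left out 1 library, with no call where the sign had turned. SLCO2B1 and PPARA at 24 h gained a call without BaP 24 h replicate 1 (-0.69 and -0.46). Over those analyses UGT1A1 at 24 h ran from -4.24 to 6.31, SLCO2B1 at 24 h from -0.69 to 0.16 and UGT2B7 between the BaP times from -0.15 to 0.36, each lowest or turned when BaP 24 h replicate 2 was absent. UGT2B10 between the BaP times ran from -0.065 to 0.50, the difference of its BaP effects from -0.40 to 0.18, and that of UGDH from -0.43 to 0.063.

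Whether equal replicate numbers mean a shared experiment is not stated in the labels. The replicate 1 minus replicate 2 difference, over 7299 genes, correlated at 0.42 between BaP and vehicle at 12 h and at 0.064 at 24 h. Libraries of equal number thus varied together in part at 12 h and hardly at 24 h. Between groups of different times the correlations ran from -0.24 to 0.017. The main fit did not pair libraries, and the replicate block is given beside it. That block used 1 replicate term for all groups and so assumed a replicate difference shared across the times, which these correlations do not show. With the replicate block UGT2B10 was called lower at both times (edgeR quasi-likelihood test, adjusted p = 0.0062 and 0.0025). UGT2B7 stayed called at 24 h (0.74, adjusted p = 0.037). The count of members called went from 0 to 1 at 12 h and from 1 to 2 at 24 h. The share of all tested genes called is given here for the main fit only, so member counts of the alternatives stand without it. Depth limits UGT1A1, UGT1A6, UGT1A9, UGT2B4, UGT2B11 and UGT2B15 most, and BaP 24 h replicate 1 is the shallowest library.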
